A study of Canis lupus familiaris with 32 samples.

Results

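Subgroup A comprised 8 primary canine osteosarcomas from dogs that lived 6 to 79 days after diagnosis, out of 32 tumors hybridized in the series. The study obtained the subgroup by hierarchical clustering of these same arrays on transcripts that separated short survivors (SS, survival under 6 months) from long survivors (LS, survival of 6 months or longer), and its members were taken here by array number (1, 2, 6, 9, 13, 14, 15 and 16). The membership is not part of the sample labels. Subgroup A was set against all 16 LS tumors. The other 8 short survivors, subgroup B, are given only beside A. All samples were snap-frozen primary tumor tissue taken at surgery, before any therapy, from pet dogs of various breeds, not an experimental model, and the labels give no treatment or genotype that separates the groups. Each tumor shared its 2-color cDNA array with a reference pool prepared from the cRNA of all 32 tumors. The values are log2 ratios to that pool, 0 marking equality with it, and no level can be compared between genes. Since A was itself chosen from these values, every A minus LS difference below is a description with its spread and not a test.

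Osteosarcoma is a malignancy of bone-forming mesenchymal cells that deposit osteoid. Bone matrix is resorbed by osteoclasts, which acidify the bone surface with carbonic anhydrase and a proton-pumping vacuolar ATPase and then digest collagen. A tumor sample also holds fibroblasts, vessels, leukocytes and, at the margin of the bone, muscle. In such bulk samples fewer cells of a type and less RNA per cell cannot be told apart.

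The tumor was labeled with Cy5 on A arrays 1, 2 and 6 and with Cy3 on A arrays 9, 13, 14, 15 and 16, while LS held 8 arrays of each orientation. The array carried 22176 probes, of which 7694 had 1 gene symbol (5246 genes) and the other 14482 are unnamed here, and 5 single values were missing. The orientation of the dyes left a strong trace: across probes, the mean of the Cy5 arrays correlated at -0.67 with the mean of the Cy3 arrays. The slope of each array on the dye pattern of LS averaged 0.514 ± 0.153 on the A Cy5 arrays (SD, n = 3) and 0.613 ± 0.264 on the A Cy3 arrays (SD, n = 5), with the lowest slope, 0.147, in A tumor 13. In LS it averaged 0.915 on the Cy5 arrays and 0.928 on the Cy3 arrays, and the 16 LS slopes lay between 0.711 and 1.23. The pattern was built from the other LS arrays, so that slopes near 1 in LS follow in part from its construction, and the B arrays, also outside LS, had slopes between 0.471 and 0.856. A low slope was therefore not particular to A. Differences are also given within the Cy5 and within the Cy3 arrays. Within Cy5 the A minus LS difference correlated with the dye pattern at -0.44 across probes, within Cy3 at 0.48, and over both orientations at 0.04, which is a description across probes that share arrays. No arrays looked like copies of each other, the highest correlation between any of them being 0.61. The osteoblast and bone matrix markers (7 of 23 on the array) cannot check the tissue label, because tumor and pool are the same tissue.

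**Figure D1:**
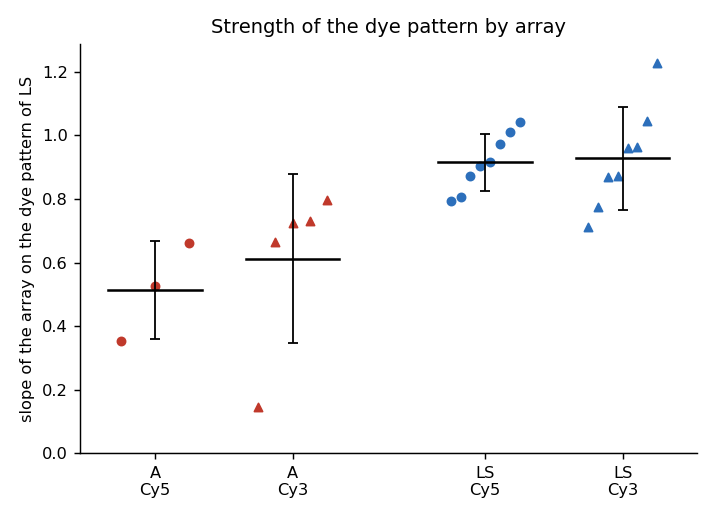
Slope of each array on the dye pattern of the long survivors (vertical axis, no unit, starting at 0), by group and by the dye of the tumor; points are arrays and the bars give the mean and SD. The A arrays averaged 0.514 (Cy5) and 0.613 (Cy3), with tumor 13 at 0.147, and the LS arrays 0.915 (Cy5) and 0.928 (Cy3).

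In A, 109 of 22176 probes were higher (0.492%) and 198 lower (0.893%) than in LS past the cut-off used for ordering, an adjusted p under 0.10 in limma with dye orientation as covariate (307 probes, 1.38%). Because the groups were formed on these arrays, nothing is read from that share. The differences were mostly small, with medians of 0.35 log2 units among the higher and -0.36 among the lower probes and a range of -2.87 to 2.86. With 1 exception among the higher probes, all 307 had the same sign within the Cy5 and within the Cy3 arrays. Selection by a fit over both orientations favors such probes, so the like signs are no independent evidence. Across all probes the A minus LS difference within Cy5 correlated at -0.09 with that within Cy3. Of these probes 50 higher and 29 lower ones carry a gene symbol (46 and 29 genes). Complete separation was rare: within both orientations every A tumor lay above every LS tumor for 1 probe (0.00451%), and below every LS tumor for 9 probes (0.0406%), of which 2 are named, POC1B and NTF3. The count depended on single tumors. It was 85 without A tumor 13 and 1170 without A tumor 6, and 0 in limma without the dye covariate (1465 probes at an unadjusted p under 0.05). With the dye pattern of LS taken out of each array 363 probes passed, 269 of them among the 307.

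The probe with the largest positive difference belonged to the transcripts that the study had selected between SS and LS on these arrays, and the direction of that list is no independent evidence. Of 24 such genes with a probe, 22 lay above LS in A on the mean of their probes, beside 58.7% of all genes. On the chosen probe 23 did. Of their 47 probes 41 lay above LS, beside 50% of all probes. Past the cut-off were 8 probes of 6 genes: WSB2, MGST1, BLVRB, ATP6V1C1, MRPS31 and COMMD8. Each A tumor lay above the LS mean of its orientation when averaged over the 24 genes, from 0.308 in tumor 6 to 0.727 in tumor 13, against -0.207 to 0.240 in the LS tumors. These ranges did not overlap, but each gene entered by its probe of smallest p. With the mean over all probes of each gene, not set against the LS mean of the orientation, the ranges overlapped when both orientations were pooled. The list mean then ran from -0.227 to 0.218 in A and from -0.607 to -0.155 in LS. Within each orientation these means did not overlap. On the Cy5 arrays the lowest A value was -0.2268 (tumor 6) and the highest LS value -0.2395 (tumor 20). On the Cy3 arrays they were 0.0187 (tumor 14) and -0.155 (tumor 26). The list was selected on these arrays, so this separation is no independent evidence either.

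WSB2, a WD-repeat protein with a SOCS box that recruits substrates to a ubiquitin ligase, had the largest positive difference. Its log2 ratios were 1.01, 2.51 and 2.47 in A tumors 1, 2 and 6 (Cy5) and -0.07, 1.04, 0.76, 1.15 and 3.85 in A tumors 9, 13, 14, 15 and 16 (Cy3). The LS values were -2.55 to 1.84 (median 0.25) on the Cy5 arrays and -4.16 to -1.09 (median -2.02) on the Cy3 arrays. All Cy3 A tumors lay above all Cy3 LS tumors, whereas on the Cy5 arrays tumor 1 fell within the LS range. The difference was 2.86 ± 0.53 (SE, n = 8 and 16), or 7.27-fold, with 1.87 within Cy5 and 3.57 within Cy3. It was seen with 1 probe of WSB2, as the other 2 differed by -0.10 and 0.13.

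The detoxifying enzymes MGST1, a membrane-bound glutathione S-transferase, and BLVRB, which reduces biliverdin and flavins, followed among the listed genes past the cut-off. MGST1 was at 1.29, 1.65 and -0.30 in the A Cy5 tumors and 0.41, 0.11, -0.11, 0.65 and -0.60 in the A Cy3 tumors, against -1.09 to 0.13 (Cy5) and -1.01 to -0.15 (Cy3) in LS. A tumors 6 and 16 lay within the LS range and the other 6 above it. The difference was 1.05 ± 0.22 (SE), a 2.08-fold higher ratio. BLVRB was at 1.21, 1.31 and 0.20 in the A Cy5 tumors and -0.13, 0.06, 0.26, 0.43 and -0.17 in the A Cy3 tumors, against -0.64 to -0.13 (Cy5) and -0.79 to 0.01 (Cy3) in LS. Here the 3 Cy5 tumors and 3 of the 5 Cy3 tumors exceeded all LS tumors of their orientation. Its probes differed by 0.77 ± 0.15 (SE) and 0.62, and the first by 1.24 within Cy5 and 0.43 within Cy3.

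MRPS31, a protein of the small subunit of the mitochondrial ribosome, was at 0.85, 0.43 and -0.38 in the A Cy5 tumors and 0.75, 0.10, 0.92, 0.19 and 0.92 in the A Cy3 tumors, against -1.08 to -0.39 (Cy5) and -0.66 to 0.49 (Cy3) in LS. Every A tumor lay above the LS mean of its orientation, although the Cy3 groups overlapped. The difference was 0.74 ± 0.16 (SE), and 0.49 on its other probe. ATP6V1C1, subunit C of the vacuolar ATPase, differed by 0.76 ± 0.18 (SE), with 7 of 8 A tumors above the LS mean of their orientation. COMMD8, a COMM domain protein of the complex that recycles cargo from endosomes, differed by 0.62 ± 0.17 (SE), also with 7 of 8. The listed genes past the cut-off in A were not particular to A. On the same probes B minus LS was 1.31 for WSB2, 0.63 for MGST1 and 0.36 for BLVRB. For ATP6V1C1 it was 0.54, for MRPS31 0.48 and for COMMD8 0.43.

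**Figure D2:**
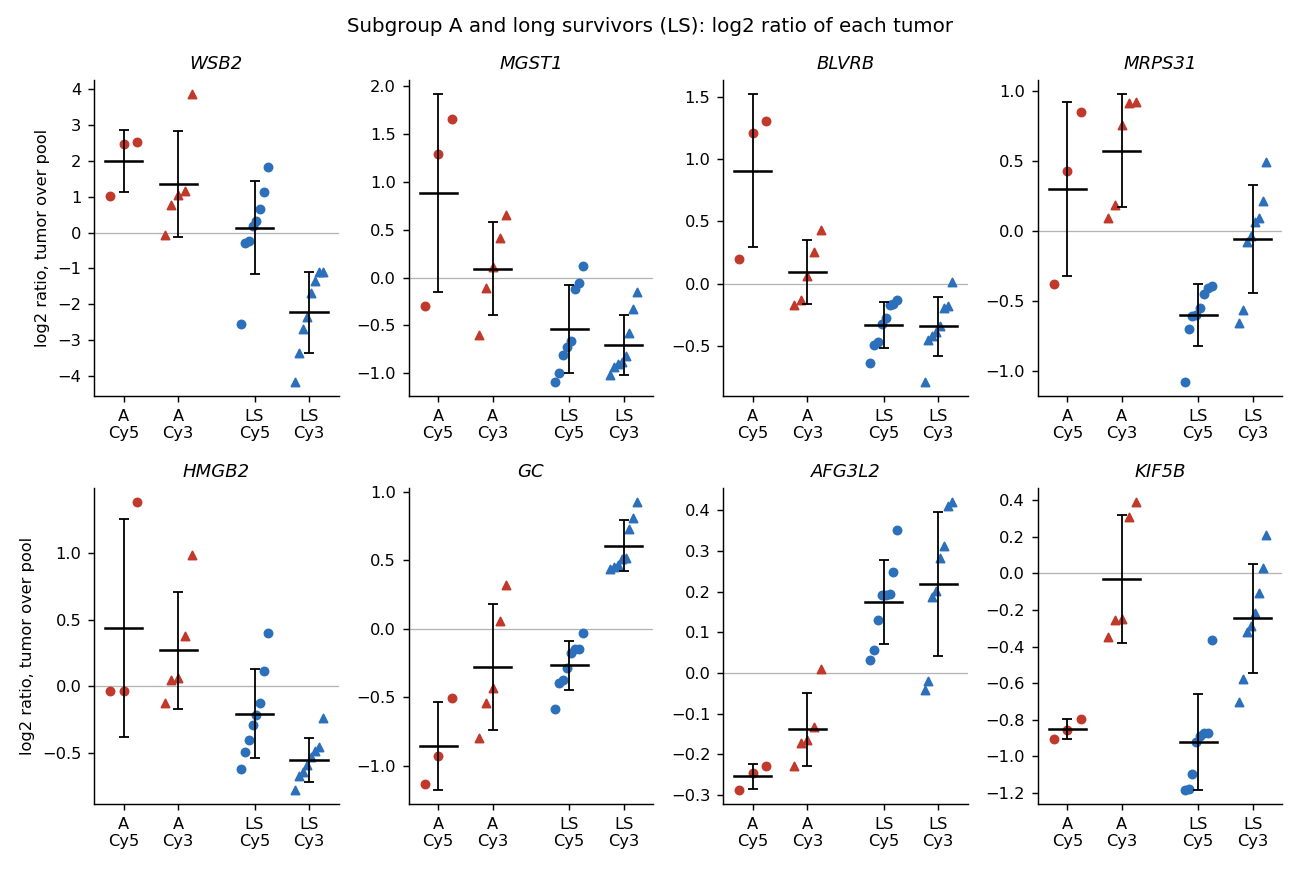
Log2 ratio of tumor over pool (vertical axis) for 8 genes in the A and LS tumors, by dye of the tumor (circles Cy5, triangles Cy3); bars give the mean and SD. WSB2, MGST1, BLVRB, MRPS31 and HMGB2 were higher in A, GC and AFG3L2 lower, and KIF5B differed by 0.15.

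The same list held genes with higher values in B than in A. The study split A from B by clustering on this list, so that such genes restate how the subgroups were formed, and no difference between A and B was tested. Both comparisons share the LS arrays, and their values are given side by side. KIF5B, the heavy chain of a kinesin motor, was at -0.80, -0.90 and -0.85 in the A Cy5 tumors and -0.25, -0.35, -0.25, 0.39 and 0.31 in the A Cy3 tumors, against LS medians of -0.90 (Cy5) and -0.25 (Cy3). The A and LS tumors thus lay in the same range, with a difference of 0.15 ± 0.12 (SE), while B minus LS was 1.65. The kinase WNK1 (0.16 in A, 1.55 in B), the corepressor NCOR1 (0.10 and 1.30) and the chromatin regulator ANKRD11 (-0.07 and 1.51) had values of the same order, although WNK1 and NCOR1 each had other probes between -0.07 and 0.19 in B. RSL1D1 (0.28 in A, 1.06 in B), CCAR1 (0.26 and 1.02), SMC6 (0.21 and 0.77), SCAF11 (0.14 and 0.74) and SEC63 (0.28 and 0.73) also lay nearer LS in A than in B, although the other probe of SEC63 was at 0.20 in A and 0.08 in B. ANKRD17 was at 0.20 in A and 0.21 in B on the probe chosen, but its other probes were at 0.43 and 0.02 in A and 2.07 and 0.95 in B. SRRM1 was at 0.06 in A and 0.02 in B on the probe chosen and at -0.01 and 1.46 on the other. PON1, a paraoxonase, differed by 0.56 in A and 1.44 in B, but in A by -0.07 within Cy5 and 1.00 within Cy3, and by 0.28 without A tumor 13. Leaving out 1 A tumor also moved RSL1D1 to 0.16 (tumor 13), SEC63 to 0.17 (tumor 1), KIF5B to 0.09 (tumor 15), SCAF11 to 0.08 (tumor 9) or 0.22 (tumor 1), and WNK1 to values between 0.00 (tumor 6) and 0.25 (tumor 1).

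Other listed genes lay above LS in both subgroups. CFL2, the muscle form of the actin-severing protein cofilin, was higher by 1.36 ± 0.43 (SE) in A and by 1.47 in B. HSP90AA1 (0.61 in A, 0.52 in B), the mitochondrial chaperones HSPA9 (0.55 and 0.37) and HSPD1 (0.45 and 0.48), the chromatin protein HMGB1 (0.44 and 0.53) and FRA10AC1 (0.49 and 0.46) were among them. The other probes of HSP90AA1 were at 0.49 and 0.51 in A and 0.27 and 1.54 in B, and those of HSPA9 at 0.50 and 0.47 in A and 0.79 and 0.56 in B. Without A tumor 13 HSP90AA1 differed by 0.38 in A. None of these reached the cut-off in A, and HSPA9, HSP90AA1 and HMGB1 differed by 0.13, 0.16 and 0.08 within Cy5 against 0.86, 0.93 and 0.69 within Cy3.

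**Figure D3:**
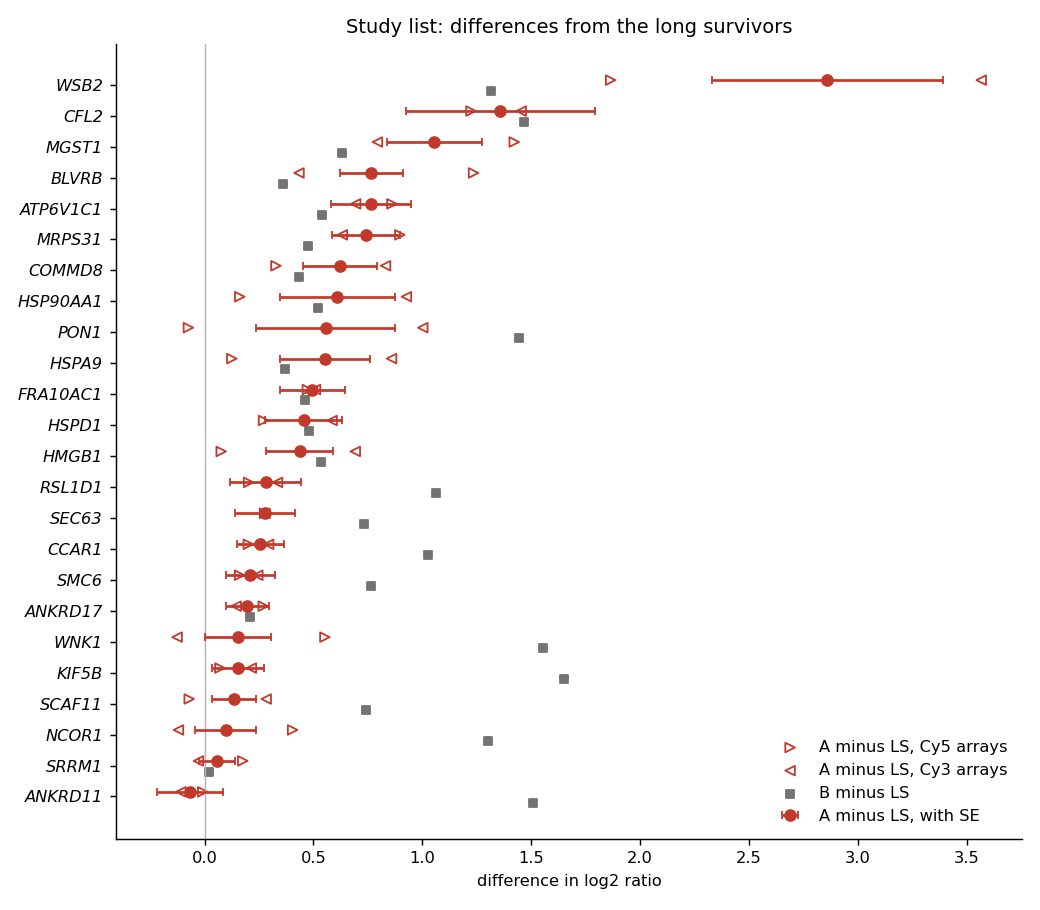
Difference in log2 ratio from the long survivors (horizontal axis) for the 24 genes of the study's list, sorted by A minus LS (filled circles with SE; open triangles within the Cy5 and the Cy3 arrays), with B minus LS (squares). WSB2 differed by 2.86 in A, and KIF5B, WNK1, NCOR1 and ANKRD11 lay between -0.07 and 0.16 in A and between 1.30 and 1.65 in B.

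Outside that list, the 15 higher genes with the smallest p were led by C5H16orf95 (0.74, but -0.08 on its other probe), SFT2D1 (0.42), MFF and HMGB2. HMGB2, a high-mobility-group protein of proliferating cells that bends DNA, was at -0.04, 1.38 and -0.04 in the A Cy5 tumors and -0.12, 0.98, 0.37, 0.05 and 0.06 in the A Cy3 tumors, against -0.63 to 0.40 (Cy5) and -0.78 to -0.24 (Cy3) in LS. All Cy3 A tumors exceeded all Cy3 LS tumors, and on the Cy5 arrays only tumor 2 did. The difference was 0.75 ± 0.16 (SE), with 0.63 on its other probe. MFF, which recruits the fission machinery to mitochondria, differed by 0.59 ± 0.12 (SE), with 0.27 on its other probe, and all 8 A tumors lay above the LS mean of their orientation.

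The further higher genes fell into several roles. The F-box protein FBXO9 (0.48), the phospholipid flippase subunit TMEM30A (0.44) and the acylphosphatase ACYP1 (0.43) passed the cut-off. So did the potassium channel KCNH2 (0.30, but 0.01 on its other probe) and NUDT8 (0.21, but 0.07 on its other probe). TOM1L1 (0.24, and 1.90 on its other probe) and the selenocysteine insertion factor SECISBP2 (0.26) also passed. The other probes of SECISBP2 differed by 0.13, 0.10 and -0.0008. Nuclear proteins included nucleolin, NCL (0.40, with 0.31 and 0.34 on its other probes), SAP18 of the Sin3 deacetylase complex (0.52), and HPF1. HPF1, a partner of PARP1 in ADP-ribosylation, differed by 0.58, but by 0.14 on its other probe. PARP4 was higher by 0.22 on 1 probe and lower by -0.21 on the other. Within both orientations these genes kept their sign on the probe chosen, as the rule for naming them required.

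Of the 15 named genes lower in A, GC, the vitamin D-binding protein that the liver secretes, differed most, by -0.76 ± 0.12 (SE), a 1.70-fold lower ratio. It was at -0.93, -1.14 and -0.51 in the A Cy5 tumors and -0.54, -0.43, 0.32, 0.06 and -0.80 in the A Cy3 tumors, against -0.59 to -0.03 (Cy5) and 0.44 to 0.93 (Cy3) in LS. On the Cy3 arrays the groups did not overlap, and on the Cy5 arrays tumor 6 lay within the LS range. Its other probe differed by -0.05. AFG3L2, which degrades misfolded proteins of the inner mitochondrial membrane, was at -0.25, -0.29 and -0.23 in the A Cy5 tumors and -0.17, -0.17, -0.13, 0.01 and -0.23 in the A Cy3 tumors, against 0.03 to 0.35 (Cy5) and -0.04 to 0.42 (Cy3) in LS. All A tumors but tumor 15 lay below every LS tumor of their orientation. The difference was -0.39 ± 0.06 (SE), while its other probes differed by 0.06 and 0.13.

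POC1B, a centriolar protein, lay below every LS tumor of the same orientation in all 8 A tumors. It was at -0.62, -0.71 and -0.54 in the A Cy5 tumors and 0.11, -0.21, -0.14, 0.03 and 0.17 in the A Cy3 tumors, against -0.52 to 0.01 (Cy5) and 0.23 to 0.65 (Cy3) in LS, a difference of -0.36 ± 0.07 (SE). The neurotrophin NTF3 was at -0.82, -0.69 and -0.59 in the A Cy5 tumors and 0.10, -0.13, -0.05, 0.10 and -0.04 in the A Cy3 tumors, against -0.50 to 0.41 (Cy5) and 0.19 to 0.67 (Cy3) in LS. The gap between the nearest A and LS tumors was small for both genes, and the level of either group depended on the dye. KAT6B, a histone acetyltransferase, differed by -0.56 ± 0.12 (SE), but by 0.21 on its other probe.

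The remaining lower genes were the proprotein convertase PCSK5 (-0.33, and -0.94 and -0.36 on its other probes), HEATR3 (-0.41), the transcription factor CREB5 (-0.32), the splicing factor PRPF39 (-0.39), PATJ of the tight junction (-0.52), TNFAIP1 (-0.30, with other probes between -0.42 and 0.18), MPV17L2 (-0.27), the ubiquitin ligase ARIH2 (-0.33), the photoreceptor protein PRPH2 (-0.34) and vitronectin, VTN (-0.30, and 0.03 and -0.09 on its other probes). For 13 of the 15 lower genes no A tumor lay above the LS mean of its orientation. Choosing genes by small p and like sign in both orientations favors this position, so the count only describes the chosen genes. B minus LS was also negative for all 15, between -0.38 and -0.03.

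Averaged per gene, 8 of 5246 genes were higher (0.152%) and 10 lower (0.191%) past the cut-off, and 58.7% of genes lay above 0 with a median of 0.03. In both orientations 1482 of the 5246 genes were positive and 1035 negative. The list counts below are read beside these figures. In most of the 33 gene lists no gene passed the cut-off. The exceptions were the study's list with 4 genes higher, drug transport and detoxification with 2 (BLVRB and MGST1), the mitochondrial ribosome with 1 (MRPS31), and the proteasome and ubiquitin list with 1 lower (ARIH2). BLVRB, MGST1 and MRPS31 also belong to the study's list, so they are the same genes counted again.

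Genes of protein folding and energy metabolism lay mostly above LS. All 26 measured chaperones had a positive difference (median 0.24), among them HSPE1 (0.54 ± 0.19), the partner of HSPD1, and HSPA4 (0.40 ± 0.15). Within Cy5 their median was 0.02 and within Cy3 0.42, and 12 of 26 were positive in both. Of the citrate cycle and respiratory chain genes 39 of 42 were positive (median 0.17; 25 positive and 1 negative in both orientations). Its complex I subunits NDUFS1 and NDUFC2 differed by 0.46 ± 0.14 and 0.36 ± 0.09, and UQCRFS1, the iron-sulfur protein of complex III, by 0.38 ± 0.15. For NDUFC2 the difference was 0.09 within Cy5 and 0.56 within Cy3. Of the glycolytic genes 12 of 14 were positive (median 0.28), with PGK1 at 0.71 ± 0.24, ALDOA at 0.51 ± 0.18 and GPI at 0.46 ± 0.13 (SE for each). The other probes of GPI differed by 0.03 to 0.54. The glycolytic median was -0.02 within Cy5 and 0.38 within Cy3, and for B it was -0.07. Without A tumor 1 the glycolytic median was 0.16 and that of the citrate cycle and respiratory chain 0.11.

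Proliferation genes were few on the array. Of 10 cell cycle and replication genes 9 were positive (median 0.32, with 0.09 within Cy5 and 0.42 within Cy3). They included RFC3 of the clamp loader (0.48 ± 0.15), the sliding clamp PCNA (0.44 ± 0.21), the helicase subunit MCM7 (0.25 ± 0.11) and cyclin B2, CCNB2 (0.63 ± 0.32). The other probe of RFC3 differed by 0.15, and those of MCM7 by 0.0006 to 0.21. CCNB2 was at -0.07, -0.12 and -0.39 in the A Cy5 tumors and 0.35, 0.61, 0.47, 2.59 and 0.45 in the A Cy3 tumors, so that tumor 15 stood far above the others, against -1.57 to 1.26 (Cy5) and -0.70 to 0.52 (Cy3) in LS. Without tumor 15 the difference was 0.36. Proteasome and ubiquitin genes were positive for 31 of 38 with small sizes (median 0.17; 18 positive and 3 negative in both orientations). Secretory pathway genes were positive for 35 of 43 over both orientations (median 0.13). Within Cy5 only 10 of the 43 were positive, within Cy3 41, and in both orientations 9. The secretory median was -0.12 within Cy5 and 0.32 within Cy3, and it was 0.0764 without A tumor 16, 0.0867 without A tumor 13 and 0.23 without A tumor 2. Cytosolic ribosome genes were evenly split (28 of 55, median 0.01).

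**Figure D4:**
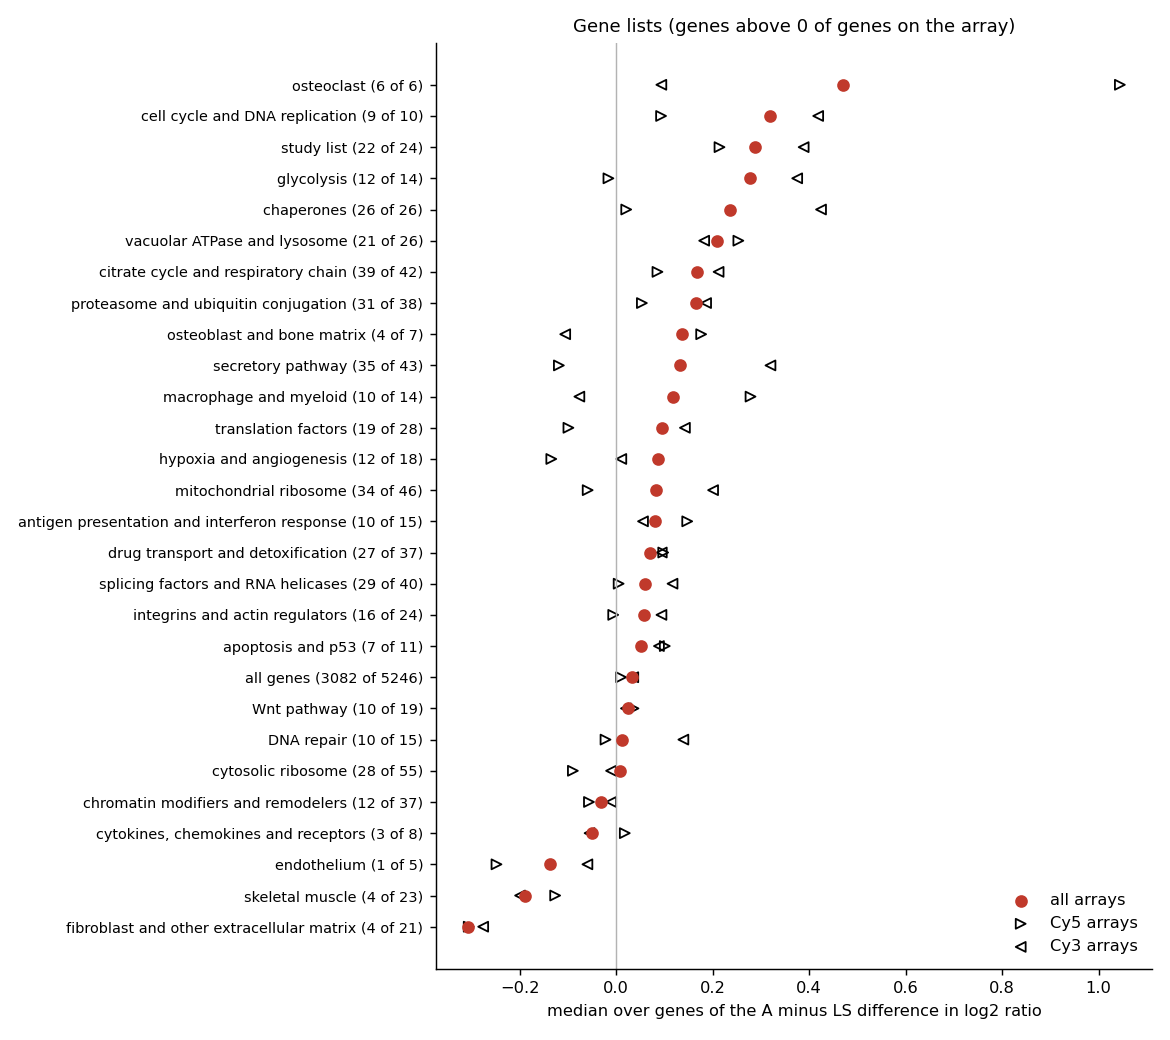
Median over genes of the A minus LS difference in log2 ratio (horizontal axis) for each gene list with at least 5 genes on the array, over all arrays (filled) and within the Cy5 and the Cy3 arrays (open triangles); the labels give the genes above 0 of those measured. Osteoclast markers had a median of 0.47 and fibroblast and matrix genes of -0.31, beside 0.03 over all genes.

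All 6 measured osteoclast markers were positive (median 0.47), but the median was 1.04 within Cy5 and 0.09 within Cy3, and 0.29 without A tumor 1 and 0.73 without A tumor 13. CA2, the carbonic anhydrase that supplies protons for resorption, was at 0.40, 2.73 and -0.67 in the A Cy5 tumors and 2.64, -1.49, -0.10, -0.67 and 1.59 in the A Cy3 tumors, against -4.02 to -0.08 (Cy5) and -2.30 to 1.38 (Cy3) in LS. The highest values, in A tumors 2, 9 and 16, exceeded those of all LS tumors, whereas tumor 13 was among the low ones. The difference was 1.53 ± 0.57 (SE) and 0.92 on the other probe. ATP6V0D2, the osteoclast form of a vacuolar ATPase subunit, was at 1.88, -0.11 and 0.45 in the A Cy5 tumors and 0.26, -1.71, 1.83, -0.55 and 1.54 in the A Cy3 tumors, against -3.39 to 0.41 (Cy5) and -2.42 to 1.61 (Cy3) in LS. Its difference of 1.14 ± 0.58 (SE) was 2.55 within Cy5 and 0.14 within Cy3. Vacuolar ATPase and lysosome genes as a whole were positive for 21 of 26 (median 0.21, with 0.25 within Cy5 and 0.18 within Cy3). ATP6V1B2 differed by 0.61 ± 0.16 (SE), with its other 3 probes between -0.14 and 0.61. ATP6AP1 differed by 0.57 ± 0.17 (SE), but by 0.22 and 0.02 on its other probes. The macrophage markers were less uniform (10 of 14, median 0.12), with CD68 at 0.66 ± 0.31 and CTSS at -0.44 ± 0.29 (SE). Without A tumor 2 the macrophage median was 0.0157, and CTSS differed by -0.25 without A tumor 1.

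Of the fibroblast and other matrix genes 4 of 21 were positive (median -0.31), and 16 were negative in both orientations against 2 positive. The list mean of the tumors ran from -0.953 to 0.0817 in A (median -0.41) and from -1.15 to 0.820 in LS (median -0.02), so the groups overlapped. DCN, the proteoglycan decorin that coats collagen fibrils, was at -4.48, -2.46 and 1.07 in the A Cy5 tumors and -1.66, -2.69, -3.61, -0.59 and 0.49 in the A Cy3 tumors, against -2.21 to 1.79 (Cy5) and -2.31 to 0.62 (Cy3) in LS. Tumors 1, 2, 13 and 14 lay below all LS tumors of their orientation, and tumors 6 and 16 among the higher LS values. The difference was -1.57 ± 0.64 (SE), with -1.15 on the other probe. FBN1, the microfibril protein fibrillin, differed by -0.72 ± 0.27 (SE), with -0.90 and -0.79 on its other probes, and in no A tumor lay above the LS mean of its orientation. Smooth muscle actin, ACTA2 (-0.74 ± 0.30), and the laminin chain LAMA4 (-0.56 ± 0.23) had the same pattern. The cartilage genes COMP (-1.08 ± 0.67) and COL2A1 (-0.32 ± 0.31) were also lower, as were PECAM1 (-0.36 ± 0.20) and VWF (-0.61 ± 0.28) of the endothelium (SE for each). The SEs were large beside these differences, most of all for COL2A1. The other probes of VWF differed by -0.10 and 0.19, and COL2A1 by -0.14 without LS tumor 25. None of these genes passed the cut-off.

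Bone matrix genes had no common direction (4 of 7 positive, median 0.14). PHEX, an endopeptidase of osteoblasts and osteocytes, was higher by 0.49 ± 0.15 (SE) with 0.46 within Cy5 and 0.51 within Cy3, while SPARC differed by -0.58 ± 0.53 (SE), with 0.13 within Cy5 and -1.09 within Cy3. SPP1, osteopontin, differed by 0.72 ± 0.79 (SE), with 1.88 within Cy5 and -0.11 within Cy3. In neither did the groups separate. Leaving out 1 tumor gave -0.32 for SPARC (A tumor 13), between 0.31 (A tumor 1) and 1.22 (A tumor 13) for SPP1, and 0.0052 for the median of the list (A tumor 1).

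Skeletal muscle genes were negative for 19 of 23 (median -0.19), with TTN, the giant sarcomere protein, at -0.34 ± 0.12 and PYGM, the muscle glycogen phosphorylase, at -0.26 ± 0.10 (SE). The list mean ran from -0.462 to -0.172 in A and from -0.646 to 1.25 in LS, the high LS values coming from tumors 27, 29 and 30. MYL1, a myosin light chain chosen after its values were seen because it set those tumors apart, was between -1.76 and -0.63 in A and at 2.21, 1.74 and 2.48 in LS tumors 27, 29 and 30. Without these 3 LS tumors the median of the list was -0.04, and 209 probes were past the cut-off (66 higher).

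**Figure D5:**
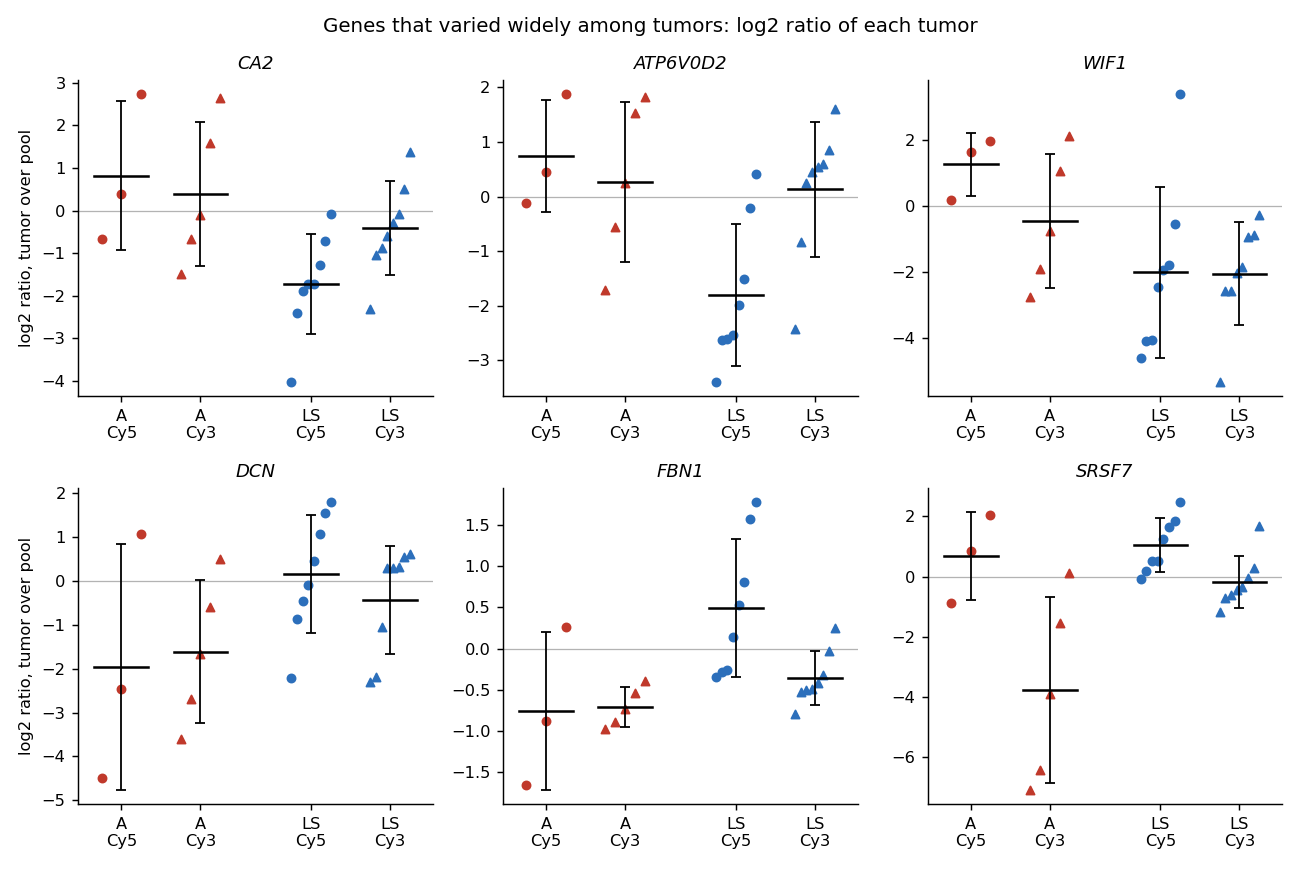
Log2 ratio of tumor over pool (vertical axis) for 6 genes with a wide spread, in the A and LS tumors by dye of the tumor (circles Cy5, triangles Cy3); bars give the mean and SD. A and LS overlapped for CA2, ATP6V0D2, WIF1, DCN and FBN1, and SRSF7 was at -3.89, -7.10 and -6.44 in A tumors 14, 15 and 16.

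In the Wnt pathway (10 of 19 positive, median 0.03) the secreted inhibitors went in different directions. WIF1, which binds Wnt proteins, was at 1.63, 1.95 and 0.18 in the A Cy5 tumors and -1.92, -0.77, 1.05, -2.75 and 2.11 in the A Cy3 tumors, against -4.59 to 3.38 (Cy5) and -5.32 to -0.28 (Cy3) in LS. The A tumors 14 and 16 exceeded all Cy3 LS tumors, and 1 Cy5 LS tumor exceeded all of A. The difference was 2.29 ± 0.83 (SE) in A, and B minus LS was -0.73. DKK3 differed by -0.93 ± 0.38 (SE) in A and by -0.56 in B, and without A tumor 1 by -0.58 in A. Among splicing factors SRSF7, an SR protein, was at -0.86, 0.84 and 2.05 in the A Cy5 tumors and -1.56, 0.13, -3.89, -7.10 and -6.44 in the A Cy3 tumors, against -0.07 to 2.47 (Cy5) and -1.19 to 1.69 (Cy3) in LS. The difference of -2.26 ± 0.74 (SE) rested on 1 probe, and the lowest values were those of A tumors 14, 15 and 16. Chromatin modifiers were positive for 12 of 37 (median -0.03), with HMGB2 above LS (0.75) and CHD4, a remodeling ATPase, at -0.22 ± 0.07 (SE) on 1 probe and 0.12 and 0.17 on the others.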

How the data were processed

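Tumor and pool cRNA were hybridized on 2-color arrays. The deposited log2 ratios are those the authors obtained after flagging of defective spots, print-tip Lowess normalization, log transformation and switching of the arrays with swapped dyes. Base and direction are not stated. They were taken from 13 muscle probes, whose 2-to-the-value averaged 0.976 to 1.21 over the 32 tumors (1.19 to 2.35 with the sign turned), as a pool of these tumors gives for tumor over pool. The image software is not given in the sources used here. Subgroup membership came from the study, not the labels, and the subgroups, members and gene lists were chosen with earlier results of these data known. Each probe was fitted with limma 3.58.1 in R 4.3.3 (A against LS, dye orientation as covariate, Benjamini-Hochberg over all probes, 0.10 as in the methods); the script was tested on simulated data. Each array stands for 1 tumor, and the number of arrays limits the precision. Genes named are the study's list, up to 4 genes per list, and 15 higher and 15 lower genes. The latter had the smallest p among genes with the same sign in both orientations and an adjusted p under 0.10. Where a gene had several probes, that of smallest p was used, and its other probes are not given for every gene. Gene symbols came from the platform annotation (7340 of 7694 probes matched to current gene identifiers).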

Additional observations from a re-analysis of the deposited data

Results flagged for a closer look

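Each gene named in the text, apart from MYL1, was screened for 1 A tumor that stood apart from the other 7, and chance alone marks about 1 in 20 genes (5 of 99 were marked here). PON1 was at 1.44 in A tumor 13, the next value being -0.20. CCNB2 was at 2.59 in A tumor 15, the next being 0.61. ATP6AP1 was at 1.49 in A tumor 1, the next being 0.33. SECISBP2 was at 0.38 in A tumor 1, the next being 0.16. PATJ was at -1.23 in A tumor 2, the next being -0.40.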

How the results depend on the processing

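The number of probes past the cut-off (307; 109 higher, 198 lower) and of gene means (18) depended on the setting, and the cause was not tested. Without the dye covariate limma gave 0 probes and 0 gene means (1465 and 393 at an unadjusted p under 0.05). The Cy5 arrays alone gave 756 probes (688 higher, 68 lower; 28 shared with the 307) and 1 gene mean, the Cy3 arrays alone 1905 (740 higher, 1165 lower; 224 shared) and 147. A model of all 32 arrays gave 84 (30 higher, 54 lower) and 1 gene mean, and a rank-sum test 500 (188 higher, 312 lower). Scaling the arrays to one median absolute deviation gave 28 gene means and 45.6% of 250 probes higher, against 35.5% of the 307, and quantile normalization 10 gene means. Leaving out 1 tumor gave 85 to 1170 probes (29 to 539 higher, 53 to 631 lower) and 5 to 148 gene means. The probe count was over 1.5 times lower or higher without A tumors 6 (1170), 13 (85), 14 (123), 15 (200) or 16 (103), or LS tumors 19 (165), 21 (128), 23 (155), 24 (201), 25 (196), 27 (112), 28 (98), 31 (177) or 32 (170). Chosen after seeing the data, leaving out A tumors 1 and 13 gave 51 (16 higher, 35 lower) and 1 gene mean, and leaving out LS tumors 27, 29 and 30 gave 66 higher probes and 9 gene means. The dye slope averaged 0.576 in A, against 0.921 in LS, and with a pattern from both groups 0.672 in A, against 1.05 in LS. Of 41 named genes past the cut-off none changed direction under any of these settings. For the 15 higher and 15 lower genes the naming rule excluded a reversal within Cy5 or within Cy3. The other settings largely reuse the same arrays, so the kept direction is no independent evidence. The 41 genes lost the cut-off in 41 cases without the dye covariate, 32 within Cy5, 12 within Cy3, 21 in the model of all arrays and 0 to 20 on leaving out 1 tumor. The osteoclast median was 0.26 with array weights, and the chaperone median 0.10 without A tumors 1 and 13. No paired analysis was possible because the groups are different dogs and share no replicate numbers.

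Turning the sign of the Cy3 arrays, in case the switching had been read wrongly, gave 1838 probes (1392 higher, 446 lower) and 70 gene means. By construction it reversed genes with like differences in both orientations. WSB2 was then at -1.31, COMMD8 -0.35, ATP6V1C1 -0.049, C5H16orf95 -0.45, SFT2D1 -0.19, MFF -0.26, HMGB2 -0.21, FBXO9 -0.22, SECISBP2 -0.19, NUDT8 -0.10, TOM1L1 -0.19, NCL -0.11, SAP18 -0.26, HPF1 -0.037, NDUFC2 -0.29 and PFKFB3 -0.34. The genes lower in A were at 0.27 (GC), 0.031 (AFG3L2), 0.040 (PCSK5), 0.12 (POC1B), 0.18 (KAT6B), 0.10 (CREB5), 0.012 (PRPF39), 0.068 (NTF3), 0.089 (PATJ), 0.18 (PRPH2), 0.034 (RPL27) and 0.020 (MRPS33).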

Other observations

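Further gene groups gave small or mixed differences between A and LS. In the hypoxia and angiogenesis list (12 of 18 genes positive, median 0.09) PFKFB3, which drives glycolytic flux, was higher by 0.46 ± 0.12 (SE), with 0.15 within Cy5 and 0.69 within Cy3. The mitophagy receptor BNIP3 was higher by 0.47 ± 0.17 (SE), with 0.10 within Cy5 and 0.74 within Cy3. NRP1, a coreceptor for vascular growth factors, differed by -0.26 ± 0.07 (SE), and the oxygen sensor EGLN1 by -0.28 ± 0.09 (SE), with no A tumor above the LS mean of its orientation for either gene. Of these 4 genes only PFKFB3 passed the cut-off. Among proteins of the cytosolic ribosome RPL27 differed by -0.34 ± 0.09 (SE) and RPS28 by 0.36 ± 0.15 (SE), with -0.09 on its other probe. The mitochondrial ribosome (34 of 46 positive, median 0.08) held MRPS33, which differed by -0.28 ± 0.07 (SE), beside MRPS31. RPL27 and MRPS33 passed the cut-off as single probes.

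Markers of lymphocytes, erythroid cells and epithelium were few and had no common size. T and NK cell genes were positive for 2 of 4 (median 0.00), B and plasma cell genes for 1 of 2, erythroid genes for 3 of 4 (median 0.19) and epithelial genes for 1 of 4 (median -0.13). Without A tumor 2 the erythroid median was 0.0265, and without A tumor 1 the epithelial median was -0.06. In antigen presentation and interferon response (10 of 15 positive, median 0.08) the class II chain DLA-DRA differed by -0.87 ± 0.41 (SE), with -0.78 on its other probe. The immunoproteasome subunit PSMB8 differed by 0.46 ± 0.19 (SE), but by -0.0009 within Cy5 and 0.79 within Cy3. Without A tumor 13 this probe differed by 0.28, and the other 3 probes of PSMB8 lay between 0.00 and 0.15. CRYAB, a small heat shock protein listed with the muscle genes, lay above LS by 0.69 ± 0.28 (SE), unlike most of that list.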
